A study of Mus musculus with 12 samples.

Results

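Cells meeting a marker rule for type 5 ON cone bipolar cells were described in mouse retina profiled by Drop-seq, in which cells share droplets with barcoded beads and each RNA molecule is counted by its unique molecular identifier (UMI). Members were chosen by measured values: a cell had to have at least 200 detected genes, at least 2 of KCNG4, CDH9, PTPRZ1, EPHA7 and LHX4, and at least 1 of the ON bipolar genes ISL1, TRPM1, GRM6 and GNG13, and to lack PRKCA and SEBOX, which mark rod bipolar cells, IGFN1, which marks another ON cone bipolar type, and RLBP1, a Müller glia gene. The rule held for 1094 of the 24772 cells with at least 200 genes, which is 4.42%. These cells had a median of 1784.5 UMIs and 1212 genes, against 1028 UMIs and 703 genes in all other cells.

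All pups were C57B6 mice, taken 14 (P14) or 17 (P17) days after birth. The groups with oxygen-induced retinopathy (OIR) had spent P7 to P12 in 75% oxygen beside a foster mother before a return to room air, while the control groups (NORM) had stayed in room air with their own mother. At each age and oxygen condition, retinas were processed whole or after removal of part of the rods (rod-depleted). The 12 libraries comprised 8 OIR libraries (2 rod-depleted and 3 whole-retina at P14, 1 rod-depleted and 2 whole-retina at P17) and 4 NORM libraries, 1 for each age and fraction. Whether 2 libraries ever share an animal is not said in the labels, so a p-value speaks for the spread of libraries, which may be technical in origin.

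Bipolar cells carry signals from photoreceptors to the inner retina. ON types use the metabotropic glutamate receptor mGluR6 (GRM6) and the channel TRPM1, and respond to light increments. Cone bipolar cells mainly contact cones, whereas rod bipolar cells serve the rod pathway. Type 5 cells are ON cone bipolar cells whose axons end in the middle of the inner plexiform layer, and they are known in mouse as a family of several subtypes. OIR is a model of retinal vessel loss followed by a phase in which the poorly supplied inner retina becomes hypoxic and new vessels grow abnormally.

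The OIR libraries held 23 and 41 members (P14 rod-depleted), 40, 121 and 99 (P14 whole retina), 15 (P17 rod-depleted), and 260 and 249 (P17 whole retina). The NORM libraries held 41 (P14 rod-depleted), 146 (P14 whole retina), 53 (P17 rod-depleted) and 6 (P17 whole retina). The NORM P17 whole-retina library, with 4645 member UMIs, fell under the minimum of 10 member cells and entered no test across genes. At P17 the NORM side therefore rests on 1 rod-depleted library. In the 11 remaining libraries, the median member had 873 to 2645 UMIs. Of 25458 distinct barcodes, 14 occurred in more than 1 library, and no barcode belonged to members of more than 1 library. The NORM P14 whole-retina library stood apart from the other libraries in genes with processed copies. Its members had 0.10 UMIs per 10000 of RPS3A1, against 2.14 to 5.44 in the other 10 fitted libraries, and 6.27 of its copy RPS3A3, against at most 0.94 there. They also had 0.81 of HSPA8, a heat shock protein, against 6.75 to 20.1 there. The columns of this library carry a replicate number that differs from its label, so its match is less sure than the others. The OIR calls and the OIR share difference are given below without it as well. The named age and fraction calls that are lost without it are listed there.

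The 5 marker genes chose the members, so their values are a description. PTPRZ1, a receptor tyrosine phosphatase, was detected in 79.5% of members, and LHX4, a LIM homeodomain factor, in 80.0%. EPHA7, an ephrin receptor, was detected in 55.0%. KCNG4, a modulatory potassium channel subunit, was detected in 28.8%, and CDH9, an adhesion molecule of the cadherin family, in 31.4%. The pair PTPRZ1 and LHX4, with none of the other 3, accounted for 285 members (26.1%), and all 5 markers were present in 78 members (7.13%). Exactly 2 markers were present in 594 members. Of the ON genes, TRPM1 was detected in 75.5% of members, ISL1 in 72.4%, GNG13 in 70.7% and GRM6 in 48.9%, and 64 members carried ISL1 alone.

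The rule has a threshold at 2 markers. Just outside it, 1288 cells met every other condition with exactly 1 marker. Cells with at least 3 markers, with exactly 2 and with exactly 1 had median depths of 2118.5, 1502.0 and 1123.5 UMIs, so marker number moved with depth. NFIA, a nuclear factor I transcription factor that the rule did not use, averaged 7.11 UMIs per 10000 with at least 3 markers, 2.85 with exactly 2 and 1.46 with exactly 1. HTR3A, a serotonin-gated channel subunit that marks a type 5 subtype in mouse, averaged 1.54, 0.347 and 0.0762 in the same order. SCGN, a calcium-binding protein, ran otherwise, with 5.28, 14.2 and 11.7. GRIK1, a kainate receptor subunit of OFF cone bipolar cells, averaged 1.62, 5.01 and 3.62. The cells with exactly 2 markers were therefore unlike those with more of them in these genes.

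The label was checked on genes outside the rule. Bipolar genes were widely detected in members: the homeodomain factor OTX2 in 74.0% and CABP5, a calcium-binding protein of bipolar cells, in 66.5%. CAR8, a protein related to carbonic anhydrases that marks rod bipolar cells, averaged 1.30 UMIs per 10000 in members. It averaged 4.89 in all other cells, which include the rod bipolar cells. In IGFN1-positive bipolar cells CAR8 averaged 1.15, and in OFF cone bipolar cells 0.43, so members were not lower than these. PCP2, a modulator of Go signalling in ON bipolar cells, averaged 14.30 in members, against 141.57 in rod bipolar cells (4124 cells with at least 2 of PRKCA, SEBOX, VSTM2B and CAR8). In IGFN1-positive bipolar cells PCP2 averaged 29.31, and in OFF cone bipolar cells 4.05. OFF cone bipolar genes went against the label. Their 7 markers summed to 7.87 UMIs per 10000 in members, against 3.07 in all other cells, and 15.4% of members had at least 2 of them, against 3.36% of all other cells. NNAT, a small membrane protein, was detected in 22.3% of members, against 7.79% of all other cells, and GRIK1 in 19.2% against 7.33%. Markers of other ON cone bipolar types also went against the label. These 4 markers summed to 2.63 in members, against 1.80 in all other cells, although the rule sets IGFN1 among them to 0. The neuropeptide gene CCK was detected in 8.78% of members, against 1.81% of all other cells. Members were also the deeper cells. With every cell thinned to 500 UMIs, GRIK1 was detected in 9.51% of members, against 4.07% of rod bipolar and 4.20% of IGFN1-positive bipolar cells. The OFF sum ran from 3.39 to 10.1 in the fitted OIR libraries, against 3.97 to 9.50 in the fitted NORM libraries. Müller glia and amacrine genes were low as well. APOE averaged 1.36 in members, against 25.49 in all other cells. The summed level of the 8 amacrine markers was 0 to 1.77 in OIR libraries, against 0 to 0.911 in NORM libraries, and CHAT among them was at 0.00. The astrocyte marker PAX2 and the horizontal cell marker ONECUT1 were also at 0.00. ONECUT2, a second horizontal cell marker, was detected in 2.38% of members, against 1.33% of all other cells. The 4 horizontal cell markers summed to 0.29 in members, against 1.05 in all other cells. GNAT1, the rod transducin, was detected in 24.2% of members, against 30.4% of all other cells. The part of free rod RNA in these values was not tested.

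The genes known for type 5 subtypes were each found in a minority. HTR3A was detected in 139 members, or 12.7%, against 6 of 4124 rod bipolar cells (0.145%, median depth 1239.5 UMIs). No OFF cone bipolar cell among 232 had it. With every cell thinned to 500 UMIs, which left out 32 members and 168 rod bipolar cells, HTR3A was detected in 4.14% of members, against 0.0758% of rod bipolar cells. SOX6, a transcription factor, was detected in 188 members, or 17.2%, against 0.267% of rod bipolar cells. In OFF cone bipolar cells, with a median depth of 1197 UMIs, it was detected in 22 of 232 (9.48%). After thinning to 500 UMIs, the SOX6 shares were 6.21% of members and 3.57% of OFF cone bipolar cells. CHRM2, a muscarinic receptor, was detected in 7.5% of members, against 6.47% of OFF cone bipolar cells. SLITRK5, a synaptic adhesion protein, was detected in 4.30%, against 6.03% of OFF cone bipolar cells. LRRTM1, another synaptic adhesion protein, was detected in 12.3%, against 2.16% of OFF cone bipolar cells. Members with SOX6 and members with HTR3A overlapped: 53 cells had both, which is 28.2% of the SOX6 cells and 38.1% of the HTR3A cells. Of the SOX6 cells, 6 (3.19%) had CHRM2, against 7.5% of all members. KCNG4 was detected in 46.8% of the SOX6 cells, but in 14.6% of the 82 CHRM2 cells. These shares are a description, since co-detection also depends on the depth of each cell.

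The members were not uniform, and the presence of KCNG4 or CDH9 divided them. One of these genes or both were detected in 501 members, and 593 members had neither. The cells were compared within the 9 libraries that had at least 10 cells of each kind. SCGN averaged 3.45 UMIs per 10000 (0.72 to 7.22 over libraries) with KCNG4 or CDH9, against 15.43 (11.35 to 22.39) with neither. The ranges did not overlap. QPCT, glutaminyl cyclase, averaged 0.72 against 4.01, and its ranges of 0.24 to 1.70 and 2.26 to 6.34 did not overlap either. The neuropeptide gene CCK averaged 0.51 against 2.53, the cadherin CDH8 averaged 0.89 against 2.74, and the granule protein SCG2 averaged 9.40 against 27.13. The homeodomain gene LHX3, known in OFF cone bipolar cells, averaged 0.08 against 0.79.

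Other genes were higher in the cells with KCNG4 or CDH9. ATP2B1, a plasma membrane calcium pump, averaged 55.38 UMIs per 10000 (39.74 to 70.05) with KCNG4 or CDH9, against 24.62 (9.93 to 34.44) with neither. GABRR2, a subunit of the GABA-C receptor of bipolar terminals, averaged 6.43 (4.48 to 10.85) against 2.59 (0.65 to 4.30). LRRTM1 averaged 3.10 against 0.48, HTR3A averaged 1.40 against 0.23, and SOX6 averaged 2.74 against 0.84. The other subtype genes ran the opposite way. CHRM2 averaged 0.30 with KCNG4 or CDH9, against 0.92 with neither, and was higher with them in 1 of 9 libraries. SLITRK5 averaged 0.0083 against 0.57, and was higher with them in 0 of 9. LHFP, a tetraspan membrane protein, averaged 1.18 (0.63 to 1.86) against 0.14 (0 to 0.32). Over 5241 genes, 42 were higher and 82 were lower in the cells with KCNG4 or CDH9 in each of the 9 libraries. The depths differed too, at a median of 2033.0 against 1591.0 UMIs. After thinning to 500 UMIs, SCGN was detected in 16.0% of the cells with KCNG4 or CDH9, against 42.2% of those with neither, and GRIK1 in 4.06% against 14.2%. At full depth the shares were 32.7% against 66.9% for SCGN and 14.6% against 23.1% for GRIK1. The rule thus gathered cells with KCNG4 or CDH9, in which HTR3A, SOX6 and LRRTM1 were higher, and a larger number without, in which SCGN, CCK, QPCT, CHRM2 and SLITRK5 were higher. The subtype genes were thus split between both kinds of cell. Averaged over cells, CHRM2 was at 0.90 in the cells with neither, against 0.96 in OFF cone bipolar cells. SLITRK5 was at 0.67 against 0.52. These values do not set the cells with neither clearly apart from OFF cone bipolar cells. All members are called type 5 rule cells here, after the rule alone.

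Set beside the other bipolar cells of the same libraries, the type 5 rule cells were led by SAMSN1, NFIA, VIPR2 and CDH11. These values describe cells that a measured rule chose, so no test was applied. SAMSN1, an adaptor protein, averaged 7.03 UMIs per 10000 in type 5 rule cells, against 1.10 in other bipolar cells, a median log2 ratio of 2.53 over 11 libraries. NFIA averaged 4.94 against 0.35, and VIPR2, a receptor for vasoactive intestinal peptide, averaged 4.23 against 0.50. The cadherin CDH11 averaged 3.59 against 0.47, and COL23A1, a transmembrane collagen, averaged 4.08 against 0.47. DRD1A, the D1 dopamine receptor, averaged 2.52 against 0.36, and the glutamate receptor subunit GRIA2 averaged 9.74 against 2.57. GJD2, connexin 36, the gap junction protein of cone bipolar cells, averaged 2.32 against 0.34. At the other end, ABLIM1, an actin-binding protein, averaged 1.12 against 12.73, and CHGB, a secretory granule protein, averaged 3.8 against 26.77. Of 4890 genes, 186 were higher and 188 lower in type 5 rule cells in each of the 11 libraries.

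Which genes set the cells apart depended on the cells they were compared with, and rod bipolar cells made up most of the pool. Against 411 IGFN1-positive bipolar cells, LMO4, a LIM-only cofactor, stood out with 5.21 against 0.32 UMIs per 10000, a median log2 ratio of 3.26. CABP5 averaged 16.72 against 3.69. GRIA2 had a median log2 ratio of -0.01 there, and VSX1, a homeodomain factor of cone bipolar cells, was lower in type 5 rule cells, with 2.66 against 6.88. Against 232 OFF cone bipolar cells, in 7 libraries, LMO4 averaged 4.88 against 0.44, and COL23A1 averaged 3.81 against 0.45. SCGN averaged 11.53 against 12.95 there, and SAMSN1 had a median log2 ratio of 0.30, so neither separated the cells from OFF cone bipolar cells. NFIA was higher in type 5 rule cells against all 3 sets, with median log2 ratios of 2.82 (rod bipolar), 1.98 (IGFN1-positive) and 1.84 (OFF cone).

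**Figure D1:**
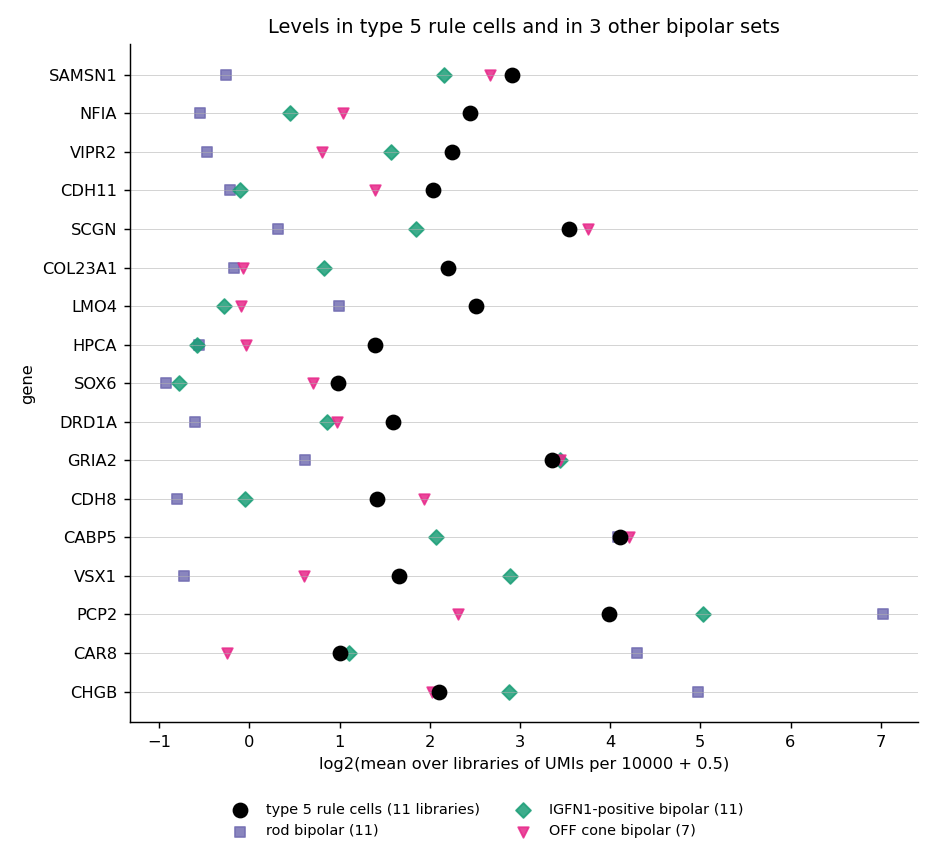
Mean over libraries of the UMIs per 10000 of 17 genes, plotted as log2(value + 0.5), in type 5 rule cells (black circles), rod bipolar cells (squares), IGFN1-positive bipolar cells (diamonds) and OFF cone bipolar cells (triangles). NFIA, COL23A1 and LMO4 lie right of all 3 other sets, whereas SCGN lies beside the OFF cone bipolar cells and PCP2 and CHGB lie left of the rod bipolar cells.

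The share of type 5 rule cells was compared with every cell thinned to 500 UMIs, because the rule needs detection and depth differed between libraries. In OIR libraries the share was 0.592% and 0.841% (P14 rod-depleted), 1.61%, 2.68% and 2.51% (P14 whole retina), 0.389% (P17 rod-depleted), and 2.76% and 2.89% (P17 whole retina). In NORM libraries it was 0.840% (P14 rod-depleted), 3.58% (P14 whole retina), 0.927% (P17 rod-depleted) and 0.870% (P17 whole retina, 2 of 230 cells). The groups overlapped. The mean was 1.78% ± 1.05 in OIR (SD, n = 8), against 1.55% ± 1.35 in NORM (SD, n = 4), and an exact permutation test within age and fraction gave p = 0.611 (two-sided, 72 arrangements). Without thinning, the means were 4.40% against 2.80%, with an exact p = 0.389. No change with OIR was detectable at this depth, and the sign of the difference was not stable: it was -0.0777 percentage points at 300 UMIs, and -0.00811 without the NORM P14 rod-depleted library. Without the NORM P14 whole-retina library, which stood apart, it was 0.906 percentage points (exact permutation p = 0.278).

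The fraction moved the share. Rod-depleted libraries held 0.718% ± 0.222 (SD, n = 5), against 2.41% ± 0.896 in whole-retina libraries (SD, n = 7), and the exact permutation test within oxygen and age gave p = 0.0167 (two-sided, 120 arrangements). Without the OIR P17 rod-depleted library the exact p was 0.05. At full depth the shares were 1.68% against 5.43%, with an exact p = 0.025. With bipolar cells alone as the denominator, the rod-depleted libraries held 1.21%, against 6.91% in whole-retina libraries, with an exact p = 0.00833. A depletion step can itself set which cells remain, and its part in the share was not tested.

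**Figure D2:**
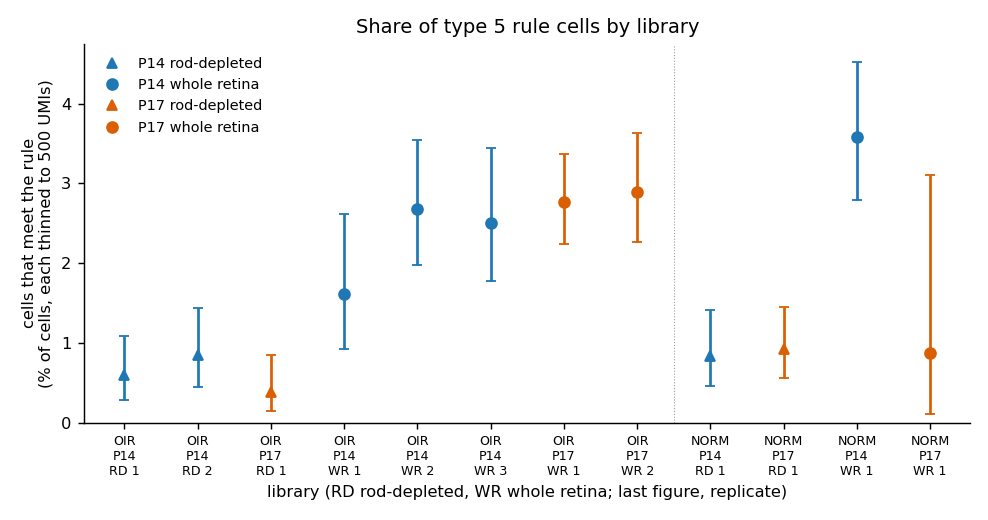
Share of cells that meet the type 5 rule in each of the 12 libraries (vertical axis, percent of cells, each thinned to 500 UMIs), with exact 95% binomial intervals that cover counting error only. Triangles are rod-depleted and circles whole-retina libraries, blue is P14 and orange P17. All 5 rod-depleted libraries lie under 1%, and OIR and NORM overlap.

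In OIR, type 5 rule cells had more RNA of 4 genes. BNIP3, a mitochondrial protein of autophagy and a target of hypoxia-inducible factors (HIF), averaged 7.40 ± 2.12 UMIs per 10000 in OIR, against 2.32 ± 0.42 in NORM. MT1, a metal-binding metallothionein, SELENBP1, a selenium-binding methanethiol oxidase, and HIGD1A, a small mitochondrial protein induced by hypoxia, rose as well. These were the only genes past an adjusted p of 0.05 (limma on library means as log2(value + 0.5), with age and fraction as terms, Benjamini-Hochberg over 4590 genes), which is 0.0871% of the genes tested. No gene was lower at that threshold. At an unadjusted p under 0.05, 144 genes were higher (3.14%) and 161 lower (3.51%).

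BNIP3 (chromosome 7, 138890836 to 138909519, minus strand, mm10) was at 3.88 to 10.24 UMIs per 10000 in the 8 OIR libraries, with a median of 7.46. In NORM it was at 2.71 (P14 rod-depleted), 2.38 (P14 whole retina) and 1.88 (P17 rod-depleted). All OIR libraries lay above all NORM libraries, and the lowest OIR values were those of P17 whole retina. The log2 difference was 1.52 ± 0.24 (SE), with an adjusted p of 0.011 in limma. The values rest on 1081 UMIs in OIR and 98 in NORM.

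MT1 (chromosome 8, 94179082 to 94180327, plus strand) was at 4.55 to 13.53 UMIs per 10000 in OIR, with a median of 5.82, and at 1.59, 1.01 and 4.33 in the NORM libraries in the same order. All OIR libraries lay above all fitted NORM libraries, but the lowest OIR library (4.55) lay close to P17 NORM (4.33). The log2 difference was 1.47 ± 0.27 (SE), with an adjusted p of 0.032 in limma. The NORM P17 whole-retina library outside the fit had 6.97, from 3 UMIs, above the OIR median.

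SELENBP1 (chromosome 3, 94933056 to 94944758, plus strand) was at 0.86 to 2.12 UMIs per 10000 in OIR, with a median of 1.36, and at 0, 0.10 and 0.23 in NORM. The groups did not overlap, and NORM rests on 7 UMIs, against 196 in OIR. Rod-depleted OIR libraries were thin too, with 1.33 from 2 UMIs and 1.13 from 7 UMIs at P14. The highest OIR value, 2.12 in P17 rod-depleted, rests on 5 UMIs. The log2 difference was 1.66 ± 0.31 (SE), with an adjusted p of 0.032 in limma. The near-identical paralogue SELENBP2 was counted at 0.25, 0.62 and 0.68 in the OIR P14 whole-retina libraries and at 0.02 in NORM P14 whole retina. The split between the genes is therefore uncertain. Their sum was 0.86 to 2.31 in OIR, against 0 to 0.227 in NORM.

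HIGD1A (chromosome 9, 121848563 to 121858362, minus strand) was at 3.24 to 10.55 UMIs per 10000 in OIR, with a median of 4.54, and at 1.25, 1.46 and 1.29 in NORM. The groups did not overlap among the fitted libraries. The log2 difference was 1.57 ± 0.31 (SE), with an adjusted p of 0.041 in limma. The NORM P17 whole-retina library outside the fit had 3.59, from 2 UMIs, above the 3 lowest OIR libraries.

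**Figure D3:**
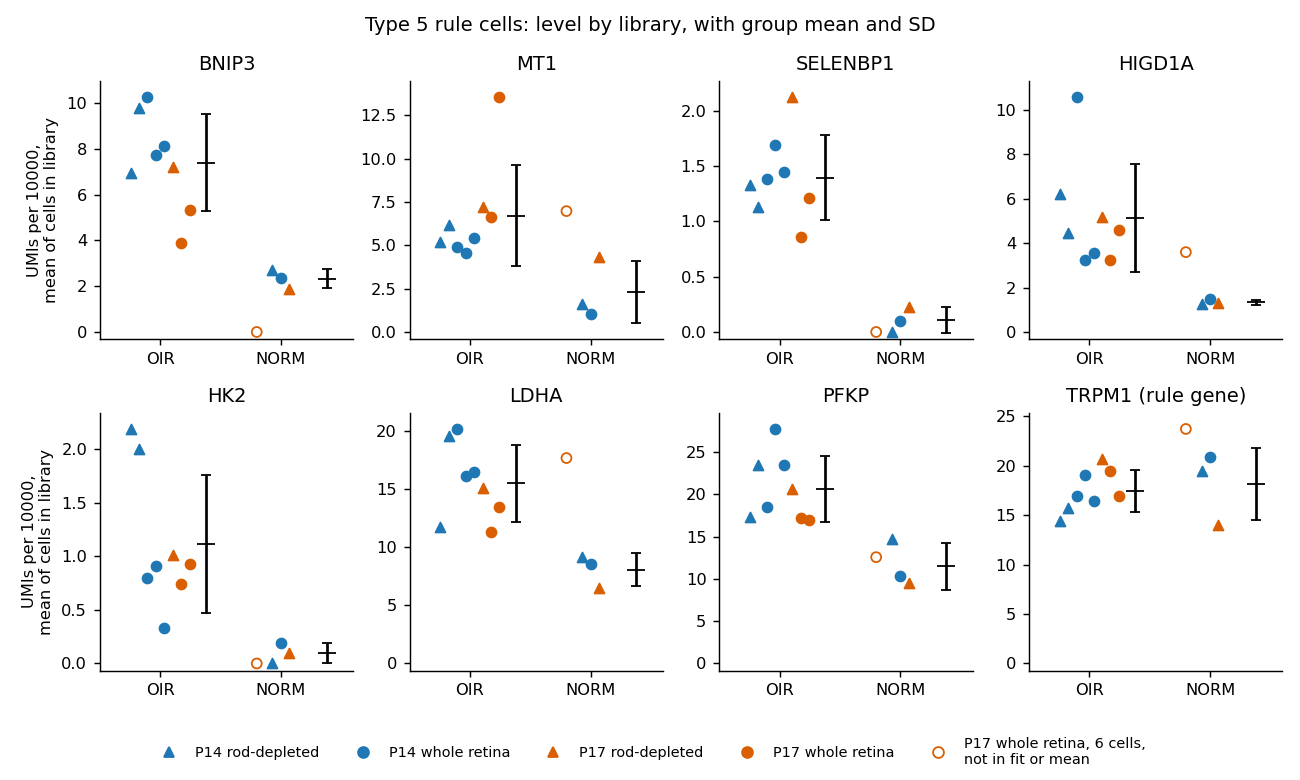
Level of 8 genes in type 5 rule cells (vertical axes, UMIs per 10000, mean of the member cells of a library), OIR left and NORM right, with the group mean and SD beside the points. Triangles are rod-depleted and circles whole-retina libraries, blue is P14 and orange P17, and the open circle is the NORM P17 whole-retina library of 6 cells, which is in neither the fit nor the mean. BNIP3 and SELENBP1 do not overlap between groups, the glycolytic genes HK2, LDHA and PFKP lie higher in OIR without passing the test, and TRPM1, a gene of the rule, overlaps.

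The sizes of the 4 differences held better than their calls. In the pairs of libraries that carry the same date in the labels, OIR over NORM at P14, the log2 difference was 1.68 (rod-depleted) and 1.90 (whole retina) for BNIP3, and 1.51 and 2.49 for HIGD1A. For MT1 it was 1.68 and 1.83, and for SELENBP1 1.70 and 1.65. The NORM library of the whole-retina pair is the one that stood apart, so its date is as unsure as its match. Leaving out 1 library at a time kept the call in 7 of 11 fits for BNIP3, 4 for MT1, 2 for HIGD1A and 1 for SELENBP1. Without the NORM P14 whole-retina library, no gene passed, and the log2 differences were 1.51 (BNIP3, adjusted p = 0.111), 1.20 (MT1, 0.191), 1.73 (SELENBP1, 0.130) and 1.67 (HIGD1A, 0.130) in limma. Among members with KCNG4 or CDH9 alone, they were 0.997, 1.90, 1.17 and 1.39 in the same order, with adjusted p-values of 0.226 to 0.767. Rod RNA moved with these comparisons: the sum of 6 rod markers in members was 0.755 to 35.5 in OIR, against 1.73 to 12.7 in fitted NORM libraries, and its part in the result was not tested.

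The proximal promoters of the 4 genes are shown to place the known HIF-binding core in them. They run from 250 bases before the start to 50 after it, 5′ to 3′ on the strand of the gene (RefSeq, GRCm38.p6). Capitals mark ACGTG or GCGTG on either strand, the core of the hypoxia response element.
BNIP3 promoter, chr7:138909457-138909756, minus strand: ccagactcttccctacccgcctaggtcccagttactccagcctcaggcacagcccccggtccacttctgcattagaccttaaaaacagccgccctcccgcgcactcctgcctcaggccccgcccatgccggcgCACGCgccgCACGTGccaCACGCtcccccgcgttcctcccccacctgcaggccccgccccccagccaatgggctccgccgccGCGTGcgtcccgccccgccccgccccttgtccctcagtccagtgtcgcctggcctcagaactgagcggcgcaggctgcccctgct
MT1 promoter, chr8:94178839-94179138, plus strand: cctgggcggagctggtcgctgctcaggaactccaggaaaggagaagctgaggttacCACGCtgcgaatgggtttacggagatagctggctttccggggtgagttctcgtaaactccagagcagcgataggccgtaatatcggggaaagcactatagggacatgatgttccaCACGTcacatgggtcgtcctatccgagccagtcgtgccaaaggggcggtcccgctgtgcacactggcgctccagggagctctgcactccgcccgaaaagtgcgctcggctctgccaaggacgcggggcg
SELENBP1 promoter, chr3:94932833-94933132, plus strand: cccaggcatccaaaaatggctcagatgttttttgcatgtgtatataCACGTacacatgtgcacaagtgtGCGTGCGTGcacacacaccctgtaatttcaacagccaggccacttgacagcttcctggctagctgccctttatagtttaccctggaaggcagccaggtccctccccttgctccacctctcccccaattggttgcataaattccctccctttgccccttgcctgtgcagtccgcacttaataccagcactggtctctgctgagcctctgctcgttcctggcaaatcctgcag
HIGD1A promoter, chr9:121857747-121858046, minus strand: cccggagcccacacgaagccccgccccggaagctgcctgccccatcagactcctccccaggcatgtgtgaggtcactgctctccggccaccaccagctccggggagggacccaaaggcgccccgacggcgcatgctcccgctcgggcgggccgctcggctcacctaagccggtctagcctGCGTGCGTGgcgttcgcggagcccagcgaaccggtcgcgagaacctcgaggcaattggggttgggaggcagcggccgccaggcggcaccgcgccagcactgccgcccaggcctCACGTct
The BNIP3 window held 5 matches, of which 2 share the palindrome CACGTG read on both strands. MT1 held 2, SELENBP1 held 3 and HIGD1A held 3. Such a match is common: 14380 of 32851 promoter windows of this length held at least 1, which is 43.8%. The core of the metal response element, TGCACNC or TGCGCNC on either strand, matched 3 times in MT1, where metal-responsive control is well known, and 2 times in SELENBP1, and 25.7% of the windows held it. A match describes letters in these windows only.

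Genes known to respond to hypoxia lay mostly on the higher side in OIR. Of 32 genes on the hypoxia and HIF list, 17 passed the filter on low values. BNIP3 and SELENBP1 passed the test and none was called lower. The median log2 difference of the 17 was 0.55 and 15 were above 0, against a median of -0.045 and 45.3% above 0 over all genes tested. The filter rests mostly on OIR libraries, which are 8 of 11, so this count is a description of the genes that passed it. NDRG1, a stress-induced protein, averaged 2.66 ± 1.01 UMIs per 10000 in OIR, against 1.16 ± 0.69 in NORM, a log2 difference of 1.11 with an adjusted p of 0.432 in limma. ANKRD37, a HIF target, averaged 3.24 ± 1.87 in OIR, against 1.45 ± 0.59 in NORM (adjusted p = 0.68 in limma). LOXL2, a lysyl oxidase, averaged 0.68 ± 0.36 in OIR, against 0.16 ± 0.19 in NORM. The NORM means of LOXL2 and SELENBP1 (0.11) lay under the filter of 0.5, which both passed through their OIR values. CAR9 and ANGPTL4, also HIF targets, were at 0 in members of both conditions.

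Of the 21 glycolysis genes, 19 were tested, none passed, the median log2 difference was 0.31 and 17 were above 0. HK2, the inducible hexokinase, was at 0.33 to 2.19 UMIs per 10000 in OIR, with a median of 0.92, and at 0, 0.19 and 0.10 in NORM, without overlap. Its log2 difference was 1.52 ± 0.34 (SE), with an adjusted p of 0.181 in limma. LDHA, lactate dehydrogenase A, was at 11.33 to 20.18 in OIR and at 9.14, 8.60 and 6.47 in NORM, also without overlap among fitted libraries (0.90 ± 0.22, adjusted p = 0.349 in limma). The unfitted NORM P17 whole-retina library had 17.7, inside the OIR range. PFKP, phosphofructokinase, was at 16.97 to 27.71 in OIR and at 14.65, 10.31 and 9.53 in NORM (0.85 ± 0.22, adjusted p = 0.349 in limma). SLC16A3, the lactate exporter MCT4, averaged 1.67 ± 0.77 in OIR, against 0.31 ± 0.27 in NORM (adjusted p = 0.400 in limma). Of all genes tested, 0.632% had every OIR library above every NORM library, and of the 19 glycolysis genes 4 did. The NORM means of HK2 (0.10) and SLC16A3 (0.31) lay under the filter of 0.5, which they passed through their OIR values. The counts for this list are therefore a description of the genes that passed the filter. HK2, LDHA and PFKP passed when libraries were weighted by their number of members, a fit that called 19 genes. GAPDH lay at 0.48 in OIR, against 0.74 in NORM; it has many near-identical pseudogenes, and its level is uncertain.

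The machinery by which these cells sense and pass on light was not called in either direction. Of 16 genes of the mGluR6 cascade, 13 were tested, with a median log2 difference of -0.18, 4 above 0 and none called. The list includes GRM6, TRPM1 and GNG13, whose detection helped to choose the members. Its median and counts are therefore a description, and the levels of these genes cannot show whether OIR changed them. GNB3, the G protein beta subunit of ON bipolar cells, averaged 15.8 ± 1.93 UMIs per 10000 in OIR, against 21.2 ± 7.42 in NORM. GRM6 averaged 8.25 ± 4.44 against 7.77 ± 1.26, and TRPM1 averaged 17.5 ± 2.11 against 18.1 ± 3.64, both genes of the rule. Of 22 genes of the ribbon synapse and release, 16 were tested and none called. UNC13B, a vesicle priming factor, averaged 1.27 ± 0.52 in OIR, against 2.13 ± 0.24 in NORM, and CPLX3, the complexin of ribbon synapses, averaged 11.65 against 14.74. Of 26 inhibitory and excitatory receptor genes, 13 were tested, with a median of -0.16, 4 above 0 and none called. Voltage-gated channels (14 of 29 tested), adhesion and guidance genes (20 of 37) and bipolar transcription factors (21 of 30) likewise gave no call. TCF4, a basic helix-loop-helix factor, had the smallest p of the last list, with 3.78 ± 1.75 in OIR, against 6.52 ± 2.19 in NORM (log2 difference -0.99, adjusted p = 0.68 in limma).

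Stress and energy lists gave 1 call, that of MT1. Of 35 nuclear-encoded genes of the respiratory chain, 34 were tested, with a median of -0.12 and 10 above 0. COX8A, a subunit of cytochrome c oxidase, averaged 7.74 ± 2.45 in OIR, against 11.30 ± 0.42 in NORM (adjusted p = 0.73 in limma). The 10 mitochondrially encoded genes tested had a median of 0.11. Of 18 immediate early genes, 8 were tested, with a median of 0.40 and 6 above 0. EGR1 averaged 3.36 ± 1.09 in OIR, against 1.45 ± 0.57 in NORM (adjusted p = 0.68 in limma), whereas FOS averaged 3.61 against 3.59. Of 12 heat shock genes, 9 were tested and all 9 lay above 0, with a median of 0.28; the low HSPA8 of NORM P14 whole retina enters this list. In the metallothionein and oxidative stress list, 12 of 20 genes were tested, with a median of 0.02 and 6 above 0. Of 45 ribosomal protein genes, 39 were tested, with a median of -0.11. Apoptosis genes were mostly under the filter: 4 of 17 were tested, none above 0. Of 18 genes of antigen presentation and interferon, 3 were tested and none called.

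**Figure D4:**
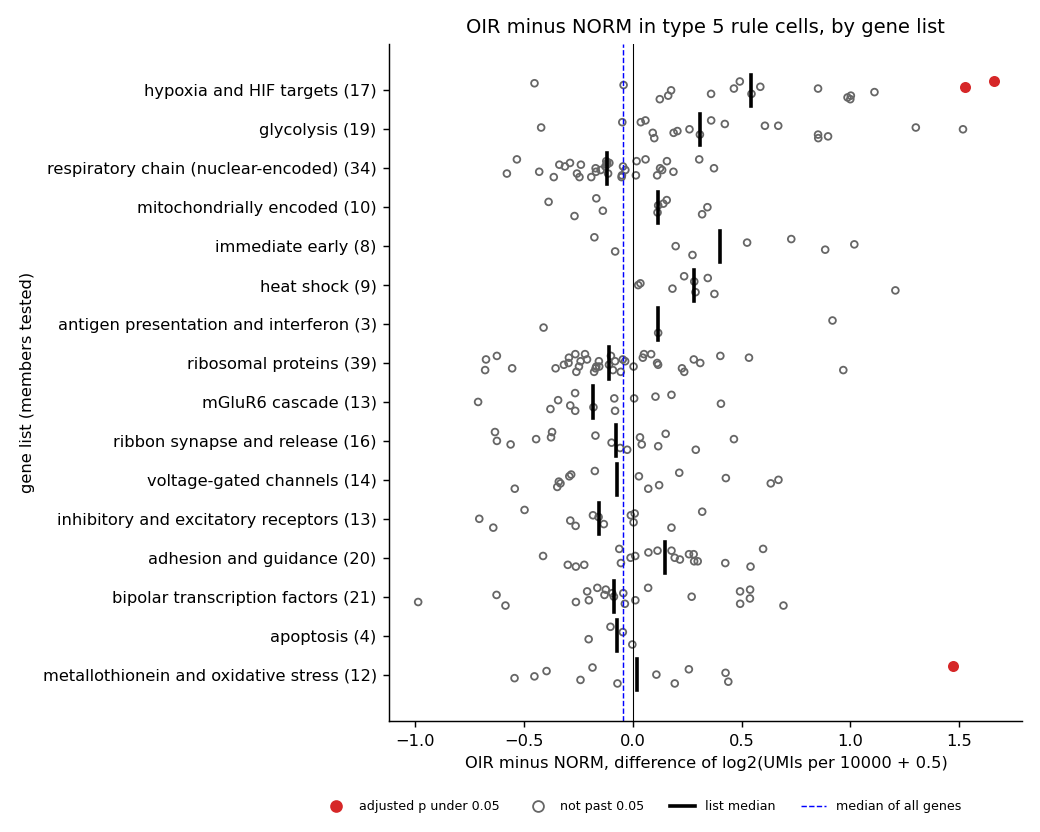
Log2 difference OIR minus NORM of each tested member of 16 gene lists in type 5 rule cells (horizontal axis, difference of log2(UMIs per 10000 + 0.5)), with the number tested in brackets. Filled red points passed an adjusted p of 0.05, thick bars are list medians and the dashed line is the median of all genes, -0.045. The hypoxia list lies farthest right, with a median of 0.55, and the respiratory chain list has a median of -0.12.

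The same genes were measured in the other bipolar cells of the libraries, which share the OIR and NORM libraries with the type 5 rule cells. In rod bipolar cells, BNIP3 averaged 8.48 ± 3.0 UMIs per 10000 in OIR, against 3.01 ± 0.42 in NORM, a log2 difference of 1.42 ± 0.24 (SE) with an adjusted p of 0.0067 in limma. MT1 averaged 21.04 ± 8.89 in OIR, against 5.63 ± 3.65 in NORM, and its log2 difference of 2.19 ± 0.28 passed as well, as did that of SELENBP1, 1.41 ± 0.16. HIGD1A averaged 3.76 ± 1.48 in OIR, against 1.77 ± 0.36 in NORM, and did not pass (0.96 ± 0.25, adjusted p = 0.157 in limma). In rod bipolar cells 18 of 4052 genes passed. In IGFN1-positive cells 2 of 4525 passed, MT1 among them (2.52 ± 0.37), while HIGD1A differed by 0.40 ± 0.42 (adjusted p = 0.909 in limma). In OFF cone bipolar cells, with 5 OIR and 2 NORM libraries, none of 4617 passed.

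Whether the OIR difference itself differed between cell sets was tested on the per-library difference between the sets. No gene passed against rod bipolar cells (0 of 3726, 0%), IGFN1-positive cells (0 of 3875) or OFF cone bipolar cells (0 of 3959) in limma, and 247, 230 and 94 genes had an unadjusted p under 0.05. For HIGD1A the type 5 rule cells exceeded rod bipolar cells by 0.61 ± 0.28 (SE) on the log2 scale (adjusted p = 0.734) and IGFN1-positive cells by 1.17 ± 0.46 (adjusted p = 0.807). For MT1 they were lower than rod bipolar cells by this measure, at -0.71 ± 0.33 (adjusted p = 0.724). For BNIP3 the difference from rod bipolar cells was 0.11 ± 0.27. None of the 4 genes is shown to respond differently in type 5 rule cells.

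**Figure D5:**
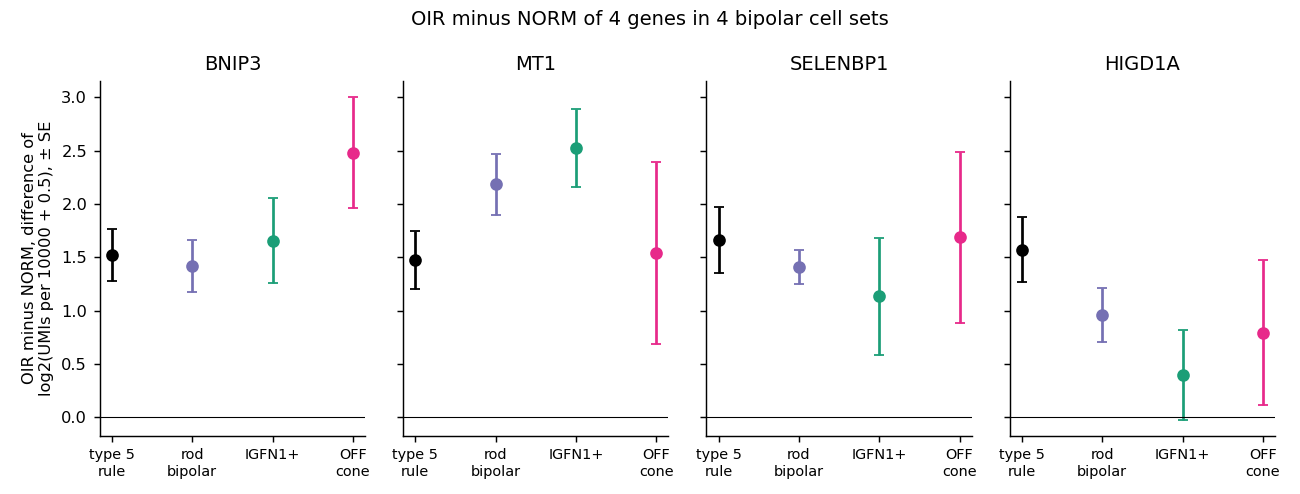
Log2 difference OIR minus NORM with its SE (vertical axis, difference of log2(UMIs per 10000 + 0.5)) of BNIP3, MT1, SELENBP1 and HIGD1A in type 5 rule cells, rod bipolar cells, IGFN1-positive bipolar cells and OFF cone bipolar cells. All 16 differences are above 0, BNIP3 is 1.52 in type 5 rule cells and 1.42 in rod bipolar cells, and HIGD1A is 1.57 and 0.96 there.

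The OIR difference was also fitted at each age. No gene passed at P14, at P17 or for the interaction in limma (0% of 4590 each, with 208, 445 and 351 genes at an unadjusted p under 0.05). BNIP3 differed by 1.58 at P14 (adjusted p = 0.053) and by 1.40 at P17 (adjusted p = 0.329), with an interaction adjusted p of 0.953. MT1 differed by 1.69 at P14 and 0.98 at P17, with an interaction adjusted p of 0.769. The P17 values rest on 1 NORM library.

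Between the ages, 6 genes passed (0.131% of 4590), 4 higher (0.0871%) and 2 lower (0.0436%) at P17. At an unadjusted p under 0.05, 235 were higher (5.12%) and 200 lower (4.36%). MEST, an imprinted gene expressed in development, was at 0.85, 0.73 and 0.50 UMIs per 10000 in the P17 OIR libraries and 0.13 in P17 NORM, against 2.16 to 5.21 with a median of 2.92 in the 7 P14 libraries. The ages did not overlap, and the log2 difference was -1.92 ± 0.27 (SE), with an adjusted p of 0.0016 in limma. MT2, a second metallothionein gene, rose. It was at 3.22, 2.84 and 5.33 in P17 OIR and 3.19 in P17 NORM, against 0.257 to 1.56 with a median of 0.672 at P14 (1.69 ± 0.27, adjusted p = 0.0066 in limma). SLC38A3, a glutamine transporter, was at 5.38, 5.45 and 3.89 in P17 OIR and 11.2 in P17 NORM, against 0.798 to 3.49 at P14 (1.46 ± 0.25, adjusted p = 0.0089 in limma). The values of these 3 genes did not overlap between ages in the fitted libraries. The share of all tested genes without such overlap was not counted.

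NR1D1, the circadian repressor REV-ERB alpha, averaged 3.61 ± 0.72 at P17, against 1.13 ± 0.63 at P14 (1.38 ± 0.26, adjusted p = 0.021 in limma). GNG13, the G protein gamma subunit of ON bipolar cells, averaged 29.3 ± 5.10 at P17, against 13.2 ± 5.30 at P14 (1.19 ± 0.22, adjusted p = 0.019 in limma). GNG13 is among the genes that chose the members, which bears on its value. GM26924, a predicted gene, averaged 1.80 at P17, against 8.33 at P14. MEST kept its call in 10 of 11 fits that left out 1 library, MT2 in 9, SLC38A3 in 8, GM26924 in 6, GNG13 in 5 and NR1D1 in 4. Without the NORM P17 rod-depleted library no gene passed. Without the NORM P14 whole-retina library, which stood apart, GM26924, GNG13 and NR1D1 lost their calls, whereas MEST, MT2 and SLC38A3 kept theirs. Library date and age cannot be told apart, since no date in the labels covers both ages.

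Between the fractions, 25 genes passed (0.545% of 4590), 7 higher (0.153%) and 18 lower (0.392%) in rod-depleted libraries. Rod genes led the lower ones. GNAT1 was at 0 in all 5 rod-depleted libraries, against 1.15 to 3.63 in the 6 whole-retina libraries. The phototransduction genes GNB1 and PDE6B and the photoreceptor gene RP1 were lower as well. LRIT1, a leucine-rich repeat protein of photoreceptor synapses, averaged 0.516 ± 0.549 in rod-depleted libraries, against 1.53 ± 0.496 in whole-retina libraries. NEDD4, a widely expressed ubiquitin ligase, averaged 4.80 ± 2.03 in rod-depleted libraries, against 11.03 ± 3.40 in whole-retina libraries.

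Among the higher ones in rod-depleted libraries were the cone phosphodiesterase subunit PDE6H, at 1.17 to 20.7 against 0 to 1.93, and the haemoglobin gene HBB-BS, at 0.628 to 6.55 against 0 to 0.933. Of 10 mitochondrially encoded genes tested, 3 passed, all higher in rod-depleted libraries (MT-CYTB, MT-ND2 and MT-ND1), and the other 7 did not pass, with log2 differences of 0.29 to 1.06. MT-CYTB averaged 99.3 ± 20.8 in rod-depleted libraries, against 45.3 ± 10.4 in whole-retina libraries, and MT-ND1 averaged 49.0 ± 16.9 against 23.2 ± 3.94. Rod, cone and blood RNA thus moved with the fraction in the profiles of these cells, and their part in the other differences was not tested. Leaving out the OIR P14 whole-retina replicate 3 left 13 genes called, and leaving out the OIR P17 rod-depleted library gave 35. GNAT1, GNB1, MBNL2, DPP6, NEDD4 and RP1 stayed called in all 11 such fits. Without the NORM P14 whole-retina library, which stood apart, the 3 mitochondrially encoded genes lost their calls. Of the other fraction genes named here, PDE6H, PDE6B and LRIT1 lost theirs too.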

How the data were processed

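Drop-seq libraries of mouse retina (8 OIR, 4 NORM) were used. Tools named per the submitters' processing notes are STAR 2.4.0 and bcl2fastq, with the build mm10 (GRCm38). Not given in the sources used here are the annotation and how multi-mapping reads and doublets were treated. The authors' deposited values are natural logs, ln(1 + UMIs / cell total × 10000), as the values show: 100% of them gave whole UMIs within 0.05. A set of 5799 columns that match no library was not used, and no doublet caller was run. For NORM P14 whole retina the columns carry another replicate number than the label.

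The members and gene lists were chosen with earlier results of these data known. Per-10000 values were averaged over the members of a library. They were compared with limma 3.58.1 on the log2(value + 0.5) scale (R 4.3.3; moderated statistics with trend; oxygen, age and fraction as terms). This scale understates changes of low genes. Libraries needed 10 members (11 of 12), and genes a mean of 0.5 and a value above 0 in 3 libraries (4590 genes, 7 residual degrees of freedom). Shares were compared by exact permutation, with cells thinned to 500 UMIs by random draws (NumPy 2.4.6, SciPy 1.17.1, Python 3.11.15). IGFN1-positive cells carried IGFN1 and an ON gene; OFF cone bipolar cells carried at least 2 OFF markers and no GRM6, TRPM1 or ISL1. The fit was tested on simulated data. Genes named are those of the rule, up to 25 of smallest p for oxygen, up to 8 each way for age and fraction among those past 0.05, up to 5 per list, the 20 highest against other bipolar cells, and markers; lower genes against other bipolar cells, genes split by KCNG4 or CDH9, and genes that mark the library standing apart were chosen after their values were seen. Alternatives covered the pseudocount, filters, cell minimum, weighting, thinning, narrower rules, a replicate block and each library left out. Some genes that these rules name are not reported here.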

Additional observations from a re-analysis of the deposited data

Results flagged for a closer look

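Of 27 sets of library values examined, 5 held a library whose gap to its nearest neighbour was large for the range of its group, a pattern that chance gives in about 1 in 20 sets. MT1 was at 13.5 UMIs per 10000 in OIR P17 whole-retina replicate 2, and the next OIR library had 7.23. HIGD1A was at 10.5 in OIR P14 whole-retina replicate 1, with 6.21 next. PGM2, phosphoglucomutase, was at 3.49 in OIR P14 rod-depleted replicate 2, with 1.81 next, and SYS1, a Golgi protein, was at 3.67 in OIR P14 rod-depleted replicate 1, with 1.85 next. In NORM, the share of cells that meet the rule, thinned to 500 UMIs, was 3.58% in P14 whole retina, with 0.927% next. Without its high library, MT1 had an adjusted p of 0.048 for OIR against NORM in limma, and without its own, HIGD1A had 0.051. The causes were not tested.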

How the results depend on the processing

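The 4 calls for OIR against NORM were few and close to the threshold. Their number was 1 with a pseudocount of 1, 0 with no filter on the mean (16444 genes tested), 2 with a mean of at least 1 per 10000, 1 with at least 5 cells per library, 2 with at least 20, 1 with cells thinned to 500 UMIs, 0 among members with KCNG4 or CDH9, 1 without members with 2 amacrine or ganglion markers, and 19 (15 higher, 4 lower) with libraries weighted by their cells. Chosen after seeing the data, P14 libraries alone gave 0 and rod-depleted libraries alone 1, a lower gene. With the replicate number of the labels as a block, 1 gene was called for OIR and 12 (4 higher, 8 lower) for the fraction, and 2 lower genes against OFF cone bipolar cells. Libraries of the same number did not deviate together (correlations of -0.043 and -0.18). These correlations cannot show whether such libraries share an animal or a batch. At P14, a pseudocount of 0.2 gave 3 calls. The share difference between OIR and NORM turned to -0.0777 percentage points at 300 UMIs. Leaving out each library in turn gave 0 to 4 calls for OIR (0 without NORM P14 rod-depleted, NORM P14 whole retina, NORM P17 rod-depleted or OIR P14 rod-depleted replicate 2), 0 to 10 for age, 13 to 35 for the fraction, 0 to 2 for OIR at P14, and 0 at P17, for the interaction and against each other cell set. The share difference ranged from -0.00811 to 0.906 for OIR and from -1.95 to -1.50 for the fraction. Of 687 values of the 25 genes named for OIR, 686 kept their sign over 28 alternatives, and PURA turned to -0.48 among members with KCNG4 or CDH9. Over these alternatives the causes were not tested. Depth limits both groups: members of a fitted library held 21654 to 768705 UMIs in OIR, against 57875 to 234712 in NORM, and the NORM value of SELENBP1 rests on 7 UMIs.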
